A study of Mus musculus with 22 samples.

Results

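The 9 genes Tcf7, Lef1, Bach2, Satb1, Foxo1, Foxp1, Id3, Klf3 and Klf6 encode transcription factors known from naive, central memory and quiescent T cells. They were chosen by name, and all 9 of them were found among the 55291 gene names that the RNA tables share. TCF1, the product of Tcf7, and its relative LEF1 bind DNA through an HMG box and keep T cells in a state from which they can self-renew. FOXO1 acts in cells that receive little growth signal, where it sustains genes for recirculation and survival such as Klf2, Ccr7 and Il7r, and FOXP1 restrains the activation of naive T cells. BACH2 represses genes of effector cells, SATB1 organises chromatin at lineage genes, ID3 blocks the E proteins, and KLF3 and KLF6 are zinc finger factors of the family of KLF2, KLF3 acting mainly as a repressor and KLF6 as a gene induced early after stimulation.

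The series holds 22 mouse samples, 8 of them RNA-seq libraries and 14 of them ATAC-seq samples that are not analysed here. The RNA libraries form 4 groups of 2. In the names of these groups the location, tissue or circulating, comes before the origin of the cells, ex-TRM (from tissue-resident memory cells) or ex-Tcirc (from circulating memory cells). All were labelled as CD4+ T cells of lung from female mice aged 6 to 10 weeks, with Balb/c as the host strain. By the series' text, effector Th2 cells came from OT-II creERT2 or DO11.10 donors, which carry a T cell receptor transgene. The hosts, sensitized to OVA, were either C57BL/6 mice of the Ly5.2 type or BALB/c-nu/nu mice, and tamoxifen to induce Cre and an OVA rechallenge were part of the protocol. The donor cells thus carry a transgenic receptor for OVA, and nu/nu hosts have few T cells of their own. Cells were sorted at day 49 or day 71, with blood named as the source of circulating ex-TRM cells and lung as that of the tissue cells, sorted on CD69 and congenic markers, at 3000 to 50000 cells per population. The labels do not tie a library to donor, host, day or animal, so a difference between groups cannot be told apart from a difference between experiments, and p-values here reflect library-to-library spread alone, possibly technical.

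Circulating ex-TRM replicate 1 listed all 9 members and 11 of 12 housekeeping genes at 0 and was treated as missing, which left 7 libraries. Sums of FPKM (fragments scaled to gene length and to the mapped fragments of the library) were 939087 to 1632198 in these 7, and 1 small RNA gene, Gm23935, held 22.9% to 32.5% of each sum. Read totals were not part of the values, so depth is unknown. The number of genes above 0 was 37471 and 37894 for the tissue ex-TRM group, 30488 and 32617 for tissue ex-Tcirc, 29688 in circulating ex-TRM replicate 2, and 12785 and 7042 in circulating ex-Tcirc. Of 1089 genes that lay between 15 and 35 FPKM in all 4 tissue libraries, 2 (0.184%) were listed at 0 in circulating ex-TRM replicate 2, 280 (25.7%) in circulating ex-Tcirc replicate 1 and 601 (55.2%) in its replicate 2. A zero in a circulating ex-Tcirc library is therefore not read here as absence of expression. CD4 T cell markers were present throughout, with all 11 of them above 0 in the tissue libraries and in circulating ex-TRM replicate 2 and 10 and 8 of 11 in circulating ex-Tcirc. Their summed FPKM was 1682 to 2327 in tissue and 1663 to 2384 in circulation.

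**Figure D1:**
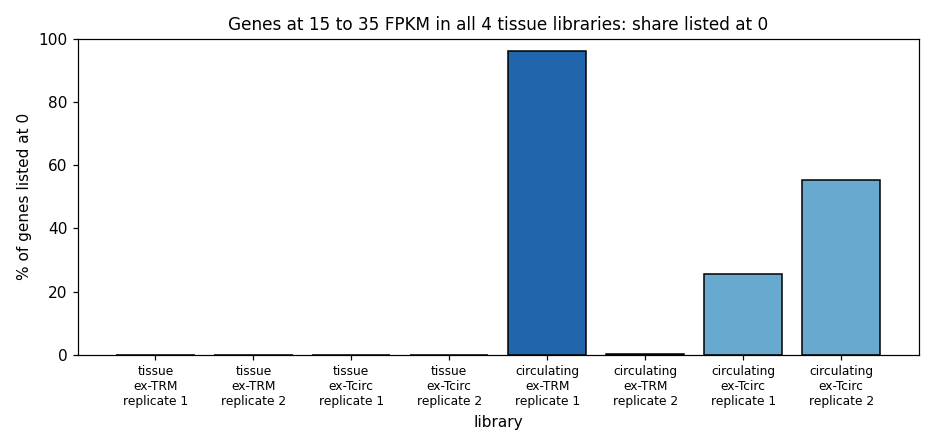
Share of genes listed at 0 (y axis, percent) in each of the 8 RNA libraries (x axis), among the 1089 genes at 15 to 35 FPKM in all 4 tissue libraries. The tissue bars are at 0 by that choice, circulating ex-TRM replicate 2 is at 0.184%, and circulating ex-Tcirc replicates 1 and 2 are at 25.7% and 55.2%.

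Promoter windows of the 3 members that separated tissue from circulating libraries, Tcf7, Satb1 and Klf3, are shown with that of Klf6, the most abundant member in most libraries, which did not separate them. The windows are from RefSeq on GRCm38.p6 and run from 250 bases before to 50 after an annotated start. All 9 members matched the table, with 19 windows in all, and the FPKM values do not tell which start was used. Capitals mark matches on either strand to GTAAACA for FOXO factors, CTTTGA for TCF and LEF factors and CACCC for KLF factors. None of these letters overlap another motif's match in the 4 windows.
Tcf7, window 2 of 2, chr11:52282546-52282845, minus strand: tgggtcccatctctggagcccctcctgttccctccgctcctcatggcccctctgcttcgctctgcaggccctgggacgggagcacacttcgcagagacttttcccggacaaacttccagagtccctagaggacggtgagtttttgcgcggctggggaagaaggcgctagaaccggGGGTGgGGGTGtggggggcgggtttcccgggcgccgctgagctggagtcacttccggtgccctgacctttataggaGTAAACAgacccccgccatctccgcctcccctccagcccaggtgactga
Satb1, window 1 of 5, chr17:51833241-51833540, minus strand: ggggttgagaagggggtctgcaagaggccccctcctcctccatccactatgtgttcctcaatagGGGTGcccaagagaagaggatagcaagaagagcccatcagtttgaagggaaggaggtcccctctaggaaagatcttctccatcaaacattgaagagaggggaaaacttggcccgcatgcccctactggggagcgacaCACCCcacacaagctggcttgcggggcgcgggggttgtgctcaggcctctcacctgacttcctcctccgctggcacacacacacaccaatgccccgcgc
Klf3, 1 window, chr5:64803271-64803570, plus strand: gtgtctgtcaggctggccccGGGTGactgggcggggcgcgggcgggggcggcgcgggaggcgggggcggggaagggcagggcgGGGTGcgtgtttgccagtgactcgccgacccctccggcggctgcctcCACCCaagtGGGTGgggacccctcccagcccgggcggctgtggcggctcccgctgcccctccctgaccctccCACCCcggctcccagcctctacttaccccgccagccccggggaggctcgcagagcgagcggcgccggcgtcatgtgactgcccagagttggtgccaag
Klf6, 1 window, chr13:5861239-5861538, plus strand: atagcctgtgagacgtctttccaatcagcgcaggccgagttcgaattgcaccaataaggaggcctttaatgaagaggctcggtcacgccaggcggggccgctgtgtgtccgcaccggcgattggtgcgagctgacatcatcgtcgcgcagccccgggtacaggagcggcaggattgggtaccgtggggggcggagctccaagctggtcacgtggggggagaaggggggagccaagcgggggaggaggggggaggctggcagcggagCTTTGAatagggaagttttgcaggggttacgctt

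The Tcf7 window held 1 FOXO match, the only one among the 19 windows, and 2 KLF matches, the Satb1 window 2 KLF matches, the Klf3 window 5 KLF matches and the Klf6 window 1 TCF match. Window 1 of Tcf7, not shown, held no FOXO match. Of the 19 windows, 1 held the FOXO letters, 4 the TCF letters and 14 the KLF letters. Of 32851 promoter windows of the same length in the table, 3.65% held the FOXO letters, 16% the TCF letters and 57.5% the KLF letters, so a KLF match is common. The KLF letters were rich in G and C, and G and C made up 64.3% of the Tcf7 window, 59% of the Satb1 window, 76.7% of the Klf3 window and 63% of the Klf6 window. A match describes the letters and is not a binding site.

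Tcf7, Satb1 and Klf3 were lower in every tissue library than in every circulating library. Tcf7, on chromosome 11 (chr11:52246527-52283383, GRCm38), was at 56.1 and 57 FPKM in tissue ex-TRM cells and 35 and 43.4 FPKM in those of tissue ex-Tcirc, against 165 in circulating ex-TRM replicate 2 and 145 and 106 in circulating ex-Tcirc. It averaged 47.9 ± 10.6 FPKM in tissue (SD, n = 4) and 139 ± 29.9 in circulation (SD, n = 3), 0.345 times as much in tissue. Between these sides the lowest circulating value, 106 FPKM, lay well above the highest tissue value, 57 FPKM. In bulk samples fewer cells that express a gene and less RNA per cell cannot be told apart.

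Satb1 (chr17:51736187-51833290) was at 45.8 and 49.3 FPKM in tissue ex-TRM cells and 27 and 18.6 FPKM in those of tissue ex-Tcirc, against 92.4 in circulating ex-TRM replicate 2 and 86.2 and 111 in circulating ex-Tcirc. Its mean was 35.2 ± 14.8 FPKM in tissue (SD, n = 4) and 96.6 ± 13 in circulation (SD, n = 3), a ratio of 0.364. The 2 origins did not overlap within tissue, ex-TRM being the higher. Klf3 (chr5:64803521-64832901) was at 9.4 and 7.08 FPKM in tissue ex-TRM cells and 14.8 and 7.67 FPKM in those of tissue ex-Tcirc, against 44.1 in circulating ex-TRM replicate 2 and 29.4 and 106 in circulating ex-Tcirc. Klf3 averaged 9.73 ± 3.5 FPKM in tissue (SD, n = 4) and 59.8 ± 40.7 in circulation (SD, n = 3), a ratio of 0.163, and its highest value was in circulating ex-Tcirc replicate 2, the library with the fewest genes above 0.

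**Figure D2:**
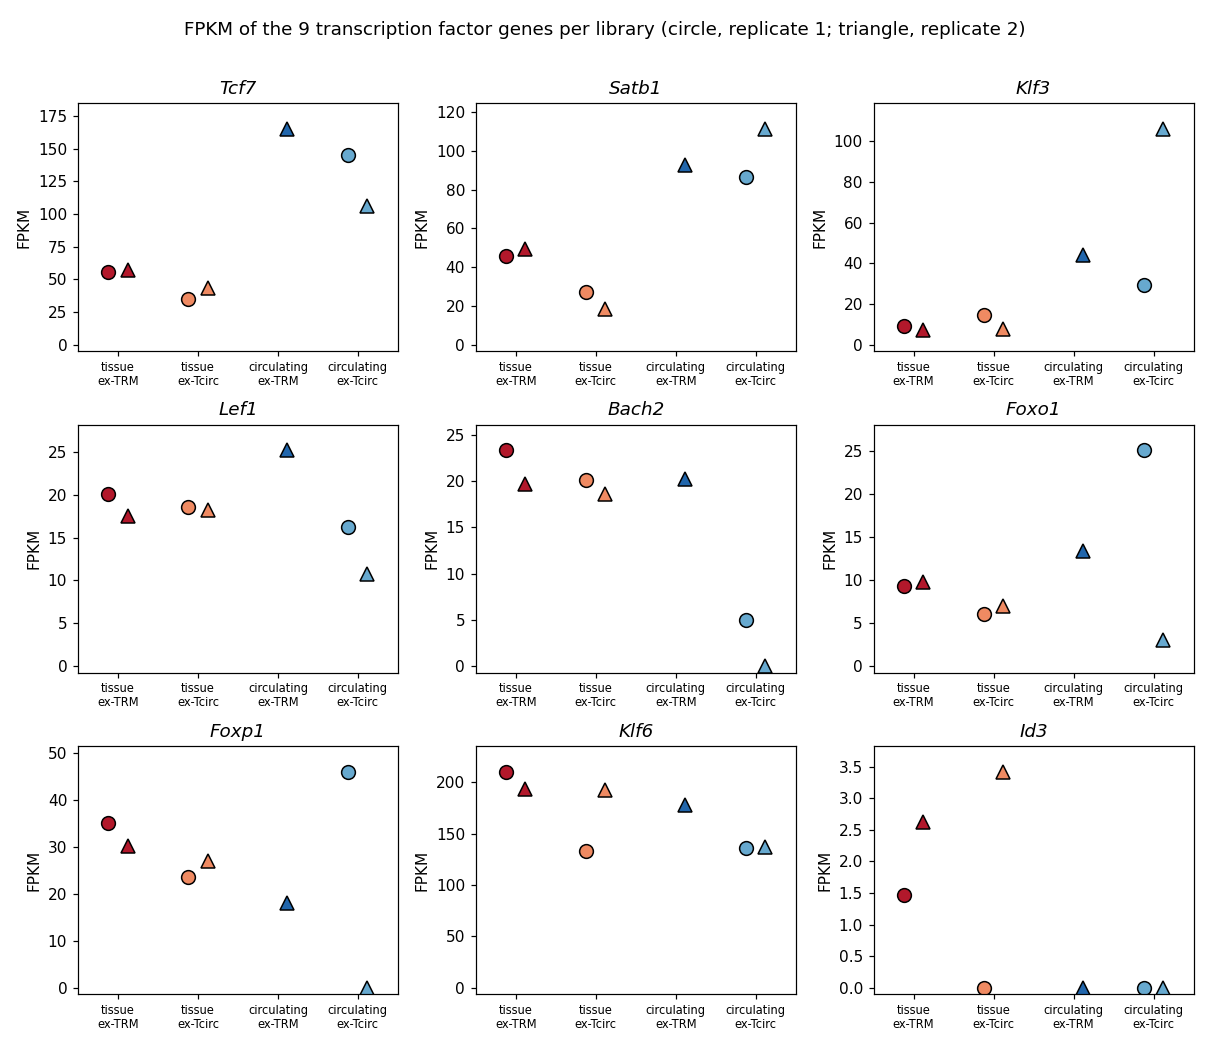
FPKM (y axis, linear, a separate scale per panel) of the 9 genes in the 7 libraries used, by group (x axis); circles are replicate 1 and triangles replicate 2, with no averaging. Tcf7, Satb1 and Klf3 show every tissue point below every circulating point, whereas Bach2 and Foxp1 are at 0 in circulating ex-Tcirc replicate 2.

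limma on log2(FPKM + 1), with all 4 groups in 1 fit, tested 9096 genes with a mean of at least 5 FPKM and 8 of the 9 members. Averaged over both origins, 2 of the 8 members were called lower in tissue and none higher, where 1.23% of all genes tested were called lower in tissue, 23.6% higher and 24.8% in either direction. The log2 difference, tissue minus circulating, was -1.59 ± 0.27 for Tcf7 (SE; limma adjusted p = 0.0189) and -1.51 ± 0.29 for Satb1 (SE; limma adjusted p = 0.0251). Klf3 had the largest difference of the members, -2.29 ± 0.59, but did not pass (SE; limma adjusted p = 0.0642). The 3 genes make up the members whose tissue and circulating libraries did not overlap with tissue lower, 3 of the 8 tested against 6.11% of all genes tested. The median log2 difference was -0.22 over the 8 members and 0.73 over all genes. All genes tested include those listed at 0 in a circulating library, which cannot be lower in tissue without overlap. Of the 9096 genes tested, 2496 had no value above 0 in circulating ex-Tcirc. Over the 3524 genes above 0 in all 7 libraries the median was -0.15. Bach2 and Foxp1 are not among these genes, so the -0.22 over 8 members covers another set. The 6 members among the 3524 had -2.29 (Klf3), -1.59 (Tcf7), -1.51 (Satb1), -0.45 (Foxo1), 0.02 (Lef1) and 0.21 (Klf6). The share without overlap was not counted over these 3524. Of 11 housekeeping genes tested, 2 were also lower in tissue without overlap, Rplp0 and Actb.

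These calls rest on how the other genes enter the adjustment. Of 2147 genes called higher in tissue, 2052 had 0 FPKM in each of the libraries of circulating ex-Tcirc, a pair of equal values with no spread. The number of calls enters the adjusted p of each gene. Over the 3524 genes above 0 in all 7 libraries no gene passed, with 481 at an unadjusted p under 0.05, and limma gave adjusted p = 0.132 for Tcf7, 0.158 for Satb1 and 0.219 for Klf3, with unadjusted p = 0.000923, 0.00156 and 0.00685. With a minimum of 20 FPKM, where 7.34% of 2656 genes were called, Tcf7 passed (limma adjusted p = 0.0361) and Satb1 did not (limma adjusted p = 0.0513). Rescaling the libraries by median-of-ratios factors moved the median difference over all genes by 0.16, left Tcf7, Satb1 and Klf3 below it, and gave Tcf7 -1.39 (limma adjusted p = 0.0776) and Satb1 -1.32 (limma adjusted p = 0.045). Tcf7 no longer passed without either tissue ex-TRM library (limma adjusted p = 0.12 without replicate 1 and 0.117 without replicate 2) or without either tissue ex-Tcirc library (limma adjusted p = 0.0628 and 0.0507). Satb1 no longer passed without tissue ex-TRM replicate 1 or 2 (limma adjusted p = 0.148 and 0.136) or tissue ex-Tcirc replicate 2 (limma adjusted p = 0.0668). Leaving out circulating ex-Tcirc replicate 1 or 2 leaves 1 library in that group, so only the log2 differences are given. They were -1.48 and -1.70 for Tcf7, -1.60 and -1.42 for Satb1 and -2.75 and -1.84 for Klf3. The direction of all 3 was the same in each of these fits.

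**Figure D3:**
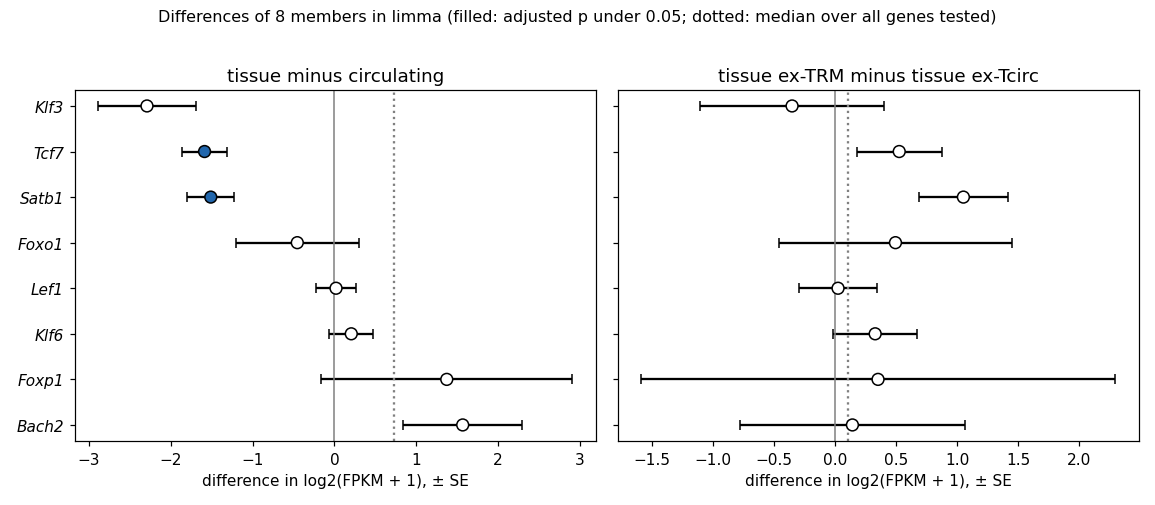
Difference in log2(FPKM + 1) with its SE (x axis) for the 8 members tested (y axis), tissue minus circulating on the left and tissue ex-TRM minus tissue ex-Tcirc on the right; filled points passed limma at an adjusted p of 0.05 and dotted lines mark the median over all genes tested, 0.73 and 0.11. Tcf7 and Satb1 are the filled points, at -1.59 and -1.51.

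The separation also appeared within a library, where any scaling of the whole library drops out. Tcf7 was at 0.224 to 0.294 times the FPKM of Klf6 in the 4 tissue libraries and at 0.776 to 1.07 times in the 3 circulating ones. For Satb1 the ratio to Klf6 was 0.0963 to 0.254 in tissue and 0.519 to 0.812 in circulation, and for Klf3 it was 0.0365 to 0.111 in tissue and 0.215 to 0.775 in circulation. Set against Lef1 in place of Klf6, Tcf7 was 1.89 to 3.26 times as high in tissue and 6.56 to 9.83 times in circulation. Tcf7 against Satb1, in contrast, gave 1.16 to 2.33 in tissue and 0.956 to 1.79 in circulation, and these ranges overlapped. The pairs were chosen after their values had been seen and are a description.

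**Figure D4:**
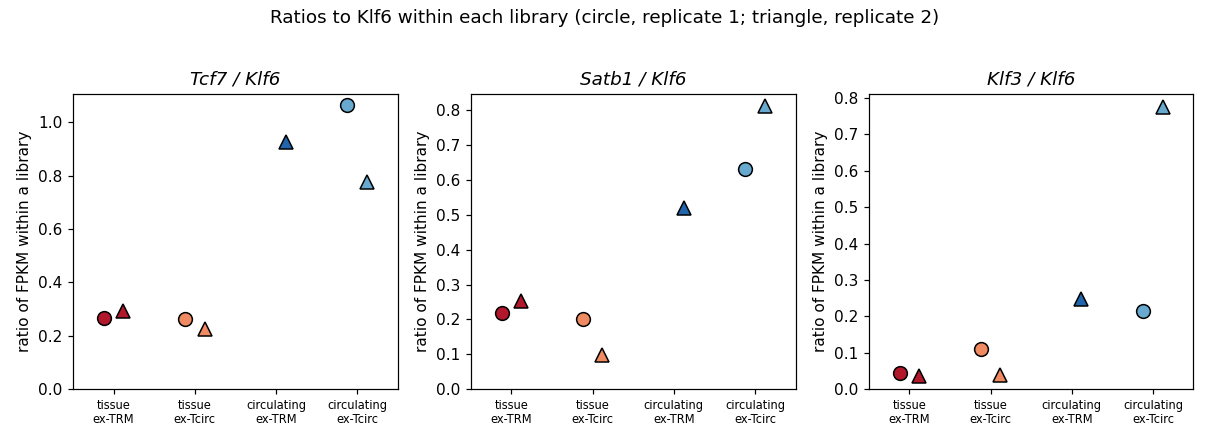
Ratio of the FPKM of Tcf7, Satb1 and Klf3 to that of Klf6 (y axis, linear from 0) within each of the 7 libraries, by group (x axis); circles are replicate 1 and triangles replicate 2. Tissue ratios of Tcf7 lie at 0.224 to 0.294 and circulating ones at 0.776 to 1.07.

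Tcf7, Satb1 and Klf3 were lower in tissue without overlap within each origin, which follows from the separation of all libraries. For ex-Tcirc cells, where the circulating libraries had 12785 and 7042 genes above 0, the log2 difference was -1.65 ± 0.35 for Tcf7 (SE; limma adjusted p = 0.0297) and -2.08 ± 0.36 for Satb1 (SE; limma adjusted p = 0.0159), and 2 of 8 members passed against 29% of all genes. Klf3 had -2.29 ± 0.75 and did not pass (SE; limma adjusted p = 0.108). Its difference was -3.19 without circulating ex-Tcirc replicate 1 and -1.38 without replicate 2. With median-of-ratios factors Tcf7 no longer passed (limma adjusted p = 0.0985) and Satb1 did (limma adjusted p = 0.0217). Over genes above 0 in all 7 libraries, neither call held (limma adjusted p = 0.12 for Tcf7 and 0.106 for Satb1). Leaving out 1 library ended the Tcf7 call for each of the 4 tissue libraries (limma adjusted p = 0.123 without either tissue ex-TRM replicate, 0.134 and 0.0897 without tissue ex-Tcirc replicate 1 and 2). It ended the Satb1 call for tissue ex-TRM replicate 1 and 2 and tissue ex-Tcirc replicate 2 (limma adjusted p = 0.0786, 0.0784 and 0.075).

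For ex-TRM cells the comparison has a single circulating library, which was close to the tissue libraries in the number of genes detected, and limma called 0% of the 9096 genes, with 358 at an unadjusted p under 0.05. The log2 differences there, tissue minus circulating, were -1.53 ± 0.43 for Tcf7, -0.95 ± 0.44 for Satb1 and -2.30 ± 0.92 for Klf3 (SE; limma adjusted p = 1 for each), with the lone circulating library assumed to vary like the other groups. A fit without both circulating ex-Tcirc libraries, chosen after the data had been seen, gave the same differences with SE of 0.23, 0.29 and 0.43, and again called no gene (limma adjusted p = 0.126, 0.275 and 0.166). The difference between origins in the tissue effect was 0.12 ± 0.55 for Tcf7, 1.13 ± 0.57 for Satb1 and -0.01 ± 1.19 for Klf3 (SE; limma adjusted p = 0.926, 0.376 and 0.996). Without circulating ex-Tcirc replicate 1 the Satb1 interaction was 1.31. The comparisons within origins share their libraries with the averaged one and are no independent support for it.

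Lef1 (chr3:131110297-131224357), the HMG box relative of Tcf7, overlapped between tissue and circulation. It was at 20.1 and 17.5 FPKM in tissue ex-TRM cells and 18.5 and 18.3 FPKM in those of tissue ex-Tcirc, against 25.2 in circulating ex-TRM replicate 2 and 16.2 and 10.8 in circulating ex-Tcirc. The tissue values were tight and the circulating ones lay on both sides of them. The averaged log2 difference was 0.02 ± 0.25 (SE; limma adjusted p = 0.973). It was -0.41 ± 0.39 within ex-TRM and 0.45 ± 0.32 within ex-Tcirc (SE; limma adjusted p = 1 and 0.413). Without circulating ex-Tcirc replicate 1 the ex-Tcirc difference was 0.72, and without replicate 2 it was 0.175.

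Klf6 (chr13:5861489-5870393) was the member with the highest FPKM in 6 of the 7 libraries, the exception being circulating ex-Tcirc replicate 1, where Tcf7 was higher. Its level was 210 and 194 FPKM in tissue ex-TRM cells and 133 and 193 FPKM in those of tissue ex-Tcirc, against 178 in circulating ex-TRM replicate 2 and 136 and 137 in circulating ex-Tcirc. The sides overlapped, and the log2 difference was 0.21 ± 0.27 (SE; limma adjusted p = 0.727). Klf6 is among the genes that cell handling induces, and the list of 17 immediate early genes had a median log2 difference of 0.28 with none called in either direction.

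Foxo1 (chr3:52268337-52350109) was low in tissue and uneven in circulation. It was at 9.31 and 9.83 FPKM in tissue ex-TRM cells and 6.05 and 6.97 FPKM in those of tissue ex-Tcirc, against 13.4 in circulating ex-TRM replicate 2 and 25 and 3.07 in circulating ex-Tcirc. The lowest and the highest of the 7 values were thus both in circulating ex-Tcirc, and the log2 difference of -0.45 ± 0.75 did not pass (SE; limma adjusted p = 0.773). It turned to 0.215 without circulating ex-Tcirc replicate 1 and was -1.12 without its replicate 2.

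Foxp1 (chr6:98925342-99522746) was at 35 and 30.1 FPKM in tissue ex-TRM cells and 23.6 and 27 FPKM in those of tissue ex-Tcirc, against 18.1 in circulating ex-TRM replicate 2 and 45.9 and 0 in circulating ex-Tcirc. The log2 difference of 1.37 ± 1.53 did not pass (SE; limma adjusted p = 0.688). It was 2.76 without circulating ex-Tcirc replicate 1 and -0.01 without its replicate 2.

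Bach2 (chr4:32238413-32586109) was even outside circulating ex-Tcirc. It was at 23.3 and 19.7 FPKM in tissue ex-TRM cells and 20.1 and 18.6 FPKM in those of tissue ex-Tcirc, against 20.2 in circulating ex-TRM replicate 2 and 4.94 and 0 in circulating ex-Tcirc. Both low values fell in the libraries where 25.7% and 55.2% of genes of such levels were at 0. The log2 difference was 1.57 ± 0.73 averaged over origins (SE; limma adjusted p = 0.265), 0.08 ± 1.13 within ex-TRM (SE; limma adjusted p = 1) and 3.06 ± 0.92 within ex-Tcirc (SE; limma adjusted p = 0.086). Averaged over origins it was 2.21 without circulating ex-Tcirc replicate 1 and 0.93 without replicate 2, and within ex-Tcirc it was 4.34 and 1.77. The interaction of -2.98 ± 1.45 did not pass (SE; limma adjusted p = 0.351). It was -4.27 without circulating ex-Tcirc replicate 1 and -1.70 without replicate 2.

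Id3 (chr4:136143822-136145392) was barely detected. It was at 1.47 and 2.63 FPKM in tissue ex-TRM cells and 0 and 3.42 FPKM in those of tissue ex-Tcirc, and was listed at 0 in all 3 circulating libraries, so it fell under the minimum of 5 FPKM and was not tested there. With a minimum of 1 FPKM it did not pass (limma adjusted p = 0.292).

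The members ordered in the same way in all 4 tissue libraries at the top, Klf6 first and Tcf7 second. Satb1 came next in 3 of these libraries and after Foxp1 in tissue ex-Tcirc replicate 2. FPKM is per length, so these orders compare levels between genes. Klf6 lay above 98.8% to 99.3% of the detected genes in tissue, and Tcf7 above 95.6% to 97.5%. Klf3 was number 7 or 8 among the members in tissue and number 4 or 5 in circulation. Across the 7 libraries the Pearson correlation of log2 values was 0.89 between Tcf7 and Satb1, 0.73 between Tcf7 and Klf3 and -0.04 between Tcf7 and Lef1. It was 0.89 between Lef1 and Bach2 and 0.83 between Bach2 and Foxp1, 3 genes that share their lowest value in the library with the fewest genes above 0. These correlations describe 7 libraries in 4 groups that differ in the number of genes above 0.

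In tissue, ex-TRM cells had more of 5 members than ex-Tcirc cells in every library, but none passed. Tcf7, Satb1, Foxo1, Foxp1 and Klf6 did not overlap between the 2 origins and were higher in ex-TRM, 5 of the 8 members tested against 33% of all genes tested. For Klf6 the lower ex-TRM library had 194 FPKM and the higher ex-Tcirc library 193 FPKM. This count was 5 of 8 for TCF partners and relatives and 10 of 16 for regulators of quiescence, lists described below. It was 11 of 17 for immediate early genes, 4 of 8 for forkhead relatives, and 3 of 5 each for KLF and Bach2 relatives. It was 6 of 15 for factors of effector differentiation and 4 of 11 for housekeeping genes. It was 2 of 6 for FOXO1 and recirculation genes and 1 of 4 for E protein and Id genes. Satb1 had the largest log2 difference, 1.05 ± 0.36 (SE; limma adjusted p = 1), followed by Tcf7 with 0.53 ± 0.35, Foxo1 with 0.50 ± 0.95, Foxp1 with 0.35 ± 1.94 and Klf6 with 0.33 ± 0.34 (SE; limma adjusted p = 1 for each). Klf3 had -0.35 ± 0.75, Bach2 0.14 ± 0.92 and Lef1 0.03 ± 0.32 (SE; limma adjusted p = 1 for each). The SE of this fit include the spread of the circulating ex-Tcirc libraries. Over the 4 tissue libraries alone, a choice made after the data had been seen, the SE was 0.23 for Satb1, 0.19 for Tcf7, 0.21 for Foxo1 and 0.18 for Foxp1, and the adjusted p remained over the threshold (limma adjusted p = 0.7 for each of these 4). limma called 0% of 9096 genes in this comparison, with 98 at an unadjusted p under 0.05. In tissue ex-Tcirc replicate 1 the 7 B cell markers summed to 395 FPKM with 3 of them above 0, against 20.7 to 63.2 FPKM with 3 to 5 above 0 in the other 3 tissue libraries, and Cd79a and Cd79b were at 0 in all 4. The same library had the highest sums in tissue of the other markers of lung and myeloid cells, at 204 FPKM against 67.4 to 143 for myeloid, 88.1 against 4.29 to 12.3 for epithelial, 37 against 10.2 to 15.4 for endothelial and 34.6 against 3.44 to 8.34 for fibroblast markers. The part of these cells in the differences was not tested.

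Markers of other cells varied between libraries. The summed FPKM of 10 myeloid markers was 67.4 to 204 in tissue, 90 in circulating ex-TRM replicate 2 and 982 and 311 in circulating ex-Tcirc, with S100a8 and S100a9 at 0 in every library. The 8 epithelial markers summed to 4.29 to 88.1 FPKM in tissue, 36.5 in circulating ex-TRM replicate 2 and 588 and 0 in circulating ex-Tcirc. The sums of circulating ex-TRM replicate 2 lay inside the tissue range. The part of other cells in the members' differences was not tested.

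Targets of FOXO1 and genes of recirculation were followed through a list of 12 genes, of which 6 were tested. Of these, 2 were called lower in tissue and none higher, against 1.23% lower and 23.6% higher over all genes tested. Klf2, a regulator of egress receptors, is taken as a point of comparison, with 31 and 28.4 FPKM in tissue ex-TRM cells and 26.1 and 20.9 FPKM in those of tissue ex-Tcirc, against 174 in circulating ex-TRM replicate 2 and 183 and 159 in circulating ex-Tcirc (log2 difference -2.67 ± 0.25, SE; limma adjusted p = 0.00552). Slamf6, a receptor on memory and stem-like T cells, had 9.63 and 10 FPKM in tissue ex-TRM cells and 17.7 and 9.72 FPKM in those of tissue ex-Tcirc, against 42.5 in circulating ex-TRM replicate 2 and 25.2 and 47.2 in circulating ex-Tcirc (-1.67 ± 0.38, SE; limma adjusted p = 0.0443). Bcl2, which protects resting T cells from death, did not pass (0.76 ± 0.52, SE; limma adjusted p = 0.48). S1pr1, Il7r and Cd27, each at 0 FPKM in circulating ex-Tcirc replicate 2, had -2.03, 1.81 and 0.75 and did not pass (limma adjusted p = 0.53, 0.641 and 0.809). Of the 6 tested genes, 3 thus had a negative and 3 a positive difference. The list's median log2 difference was -0.46, against 0.73 over all genes. It was -0.15 over the 3524 genes above 0 in all 7 libraries, a set that leaves out S1pr1, Il7r and Cd27.

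Partners and relatives of the members were described in the same comparison, and most of their calls were of genes with 0 FPKM in each of the circulating ex-Tcirc libraries. Of 8 tested TCF partners and relatives, 2 were called higher in tissue, Axin2, a target and inhibitor of Wnt signalling, and Tle4, a corepressor, against 23.6% of all genes tested, and the list's median was 1.40. A count of this size is near that share. Axin2 was at 26.7 and 22.9 FPKM in tissue ex-TRM cells and 17.7 and 22.6 FPKM in those of tissue ex-Tcirc, against 27 in circulating ex-TRM replicate 2 and 0 and 0 in circulating ex-Tcirc. The single circulating ex-TRM library was thus as high as the tissue libraries. Bcl9l, a coactivator of beta-catenin, did not pass (1.38 ± 0.35, SE; limma adjusted p = 0.0593).

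Of 4 tested E protein and Id genes, the E protein gene Tcf3 was called higher in tissue (limma adjusted p = 0.00548). Its level lay between 16.8 and 21.9 FPKM over the 4 tissue libraries, against 20 in circulating ex-TRM replicate 2 and 0 and 0 in circulating ex-Tcirc. Id2, a relative of Id3, was at 124 and 125 FPKM in tissue ex-TRM cells and 93.7 and 126 FPKM in those of tissue ex-Tcirc, against 86.4 in circulating ex-TRM replicate 2 and 88.2 and 29.2 in circulating ex-Tcirc, and did not pass (limma adjusted p = 0.426). Tcf4, another E protein gene, had a difference of 0.35 (limma adjusted p = 0.892). Of 5 tested KLF relatives, Klf4 and Klf12 were called higher in tissue, both with 0 FPKM in circulating ex-Tcirc, and Klf2 was called lower. Among 8 forkhead relatives Foxj3 was the 1 call, higher in tissue, whereas Foxo3 and Foxo4, the relatives of Foxo1, did not pass (1.29 and 1.01, limma adjusted p = 0.596 and 0.586). Among 5 relatives and partners of Bach2, Maff was the 1 call, higher in tissue, and the small Maf factors Mafk and Mafg did not pass (0.84 and 0.81, limma adjusted p = 0.705 and 0.733). The medians of these 4 lists were 0.58, 1.47, 0.82 and 0.81, against 0.73 over all genes, of which 23.6% were called higher in tissue and 1.23% lower.

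Among 16 tested regulators of quiescence, Tsc1, a brake on mTOR, and Pik3ip1, an inhibitor of PI3 kinase, were called higher in tissue and Myb lower, with a list median of 0.47. The higher calls make up less of this list than the 23.6% called higher over all genes, where 1.23% were called lower. Tsc1 and Pik3ip1 had 0 FPKM in circulating ex-Tcirc. Myb, a factor of self-renewing lymphocytes and of dividing progenitors, was at 2.79 and 3.27 FPKM in tissue ex-TRM cells and 5.53 and 2.53 FPKM in those of tissue ex-Tcirc, against 8.29 in circulating ex-TRM replicate 2 and 17.2 and 25.5 in circulating ex-Tcirc (log2 difference -1.70 ± 0.33, SE; limma adjusted p = 0.0271). Like Tcf7, Myb was lower in each tissue library than in each circulating one.

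Of 15 tested factors of effector differentiation, 2 were called higher in tissue and none lower, with a median of 0.70. This is a smaller share than the 23.6% of all genes called higher, and the median is close to the 0.73 of all genes. Rbpj, the DNA-binding partner of Notch, was at 124 and 95.7 FPKM in tissue ex-TRM cells and 74.2 and 96.1 FPKM in those of tissue ex-Tcirc, against 44 in circulating ex-TRM replicate 2 and 21.4 and 26.5 in circulating ex-Tcirc (log2 difference 1.54 ± 0.28, SE; limma adjusted p = 0.0228). Rbpj was the 1 gene called higher in these lists that was above 0 in all 7 libraries. Tbx21, the lineage factor of Th1 cells, had 22.5 and 26.6 FPKM in tissue ex-TRM cells and 7.79 and 14.4 FPKM in those of tissue ex-Tcirc, against 20.6 in circulating ex-TRM replicate 2 and 0 and 0 in circulating ex-Tcirc (limma adjusted p = 0.0121). Irf4, a factor induced by receptor signals, did not pass (1.68 ± 0.46, SE; limma adjusted p = 0.0736). Over genes above 0 in all 7 libraries no gene passed, Klf2, Slamf6, Myb and Rbpj included.

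None of the 11 tested housekeeping genes and none of the 17 immediate early genes passed. Of the housekeeping genes, 2 were lower in every tissue library than in every circulating one, Rplp0 and Actb. Rplp0 and Actb had the smallest p among housekeeping genes, with differences of -1.19 and -0.57 (limma adjusted p = 0.158 and 0.194), and Gapdh had -0.40 (limma adjusted p = 0.418), and the list's median was -0.19. Fos, Egr1 and Egr3 had the smallest p among immediate early genes, with 0.59, 1.33 and 1.55 (limma adjusted p = 0.257, 0.346 and 0.377).

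The genes whose pattern was most like that of Tcf7 were sought by Pearson correlation of log2 values over the 7 libraries, among 1197 genes above 0 in all of them with a mean of at least 20 FPKM. The 5 closest were the ribosomal pseudogene Rpl10-ps3 (0.982), which may share reads with Rpl10, Mxd1, a factor that opposes MYC (0.979), Dock2, an activator of Rac in lymphocyte migration (0.979), Flna, an actin crosslinker (0.974), and Rpl3, a ribosomal protein gene (0.964). Mxd1 was at 25.3 and 25.8 FPKM in tissue ex-TRM cells and 18.4 and 18.2 FPKM in those of tissue ex-Tcirc, against 43.6 in circulating ex-TRM replicate 2 and 45.1 and 39.8 in circulating ex-Tcirc, with no overlap. Klf2 was 8th on the same scale (0.956), Satb1 56th (0.891) and Klf3 214th (0.73). For Klf6 the 5 closest were Nfkbiz, an inducible regulator of NF-kB (0.97), Clk1, a splicing kinase (0.964), Abca2 (0.958), Map4k2 (0.957) and Acap1 (0.952). Nfkbiz was at 172 and 174 FPKM in tissue ex-TRM cells and 93.8 and 157 FPKM in those of tissue ex-Tcirc, against 148 in circulating ex-TRM replicate 2 and 108 and 90 in circulating ex-Tcirc, and shared with Klf6 a low value in tissue ex-Tcirc replicate 1.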

How the data were processed

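The deposited files hold 1 FPKM value per gene name for each of 8 RNA libraries, per the file headers, with 112 to 129 repeated names per library, which were summed. Tools listed in the submitters' processing notes, with no roles given, include StringTie 3.0.1 and HISAT2 2.2.1, and the build listed is mm10. For annotation, strand setting and filters, the sources used here state nothing. The labels' protocols describe a strand-specific kit. FPKM scales by length and by mapped fragments, so a library of few fragments gives large values to single fragments and lists other genes at 0.

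Groups came from sample titles. limma 3.58.1 (R 4.3.3) was fitted to log2(FPKM + 1), with group means, an intensity trend and Benjamini-Hochberg adjustment at 0.05 over 9096 genes whose mean over 7 libraries reached 5 FPKM. Differences on this scale understate changes of low genes. The fit was tested on simulated data, where it missed most of the changes put in, so a gene that did not pass is not shown to be unchanged. Members and lists were chosen with earlier results of these data known. From each list the text names the genes called or, with fewer than 3 called, the 3 of smallest p, and Klf2, as well as the 5 genes most correlated with Tcf7 and Klf6, predicted gene symbols left out. For the list of FOXO1 and recirculation genes it also gives the other genes tested, and Ccr7 is named without a value. Alternatives were a pseudocount of 0.1, other minimums or none, genes above 0 throughout, median-of-ratios factors, the replicate block, all 8 libraries and leaving out each library. Python 3.11.15 and matplotlib 3.10.9 were used for joining and drawing.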

Additional observations from a re-analysis of the deposited data

Results flagged for a closer look

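Lef1 pointed in opposite directions in the 2 origins. Both tissue ex-TRM libraries (20.1 and 17.5 FPKM) lay below circulating ex-TRM replicate 2 (25.2 FPKM), whereas both tissue ex-Tcirc libraries (18.5 and 18.3 FPKM) lay above circulating ex-Tcirc (16.2 and 10.8 FPKM). The interaction in log2(FPKM + 1) was -0.852 ± 0.5 (SE; limma adjusted p = 0.481), which did not pass. Without circulating ex-Tcirc replicate 1 it was -1.12. Over all 9096 genes tested the median interaction was -1.55, more negative than that of Lef1. How many of these genes point in opposite directions in this way was not counted. The ex-TRM side rests on 1 circulating library. The circulating ex-Tcirc libraries had 12785 and 7042 genes above 0, and the part of this in the interaction was not tested.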

How the results depend on the processing

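Over the settings other than leaving out a library, 216 of 242 values of members kept their direction and their side of the threshold. Leaving out 1 library did so for 159 of 199. Other minimums leave a member's difference unchanged by construction, and most of these values did not pass in the main fit. Much of this count was thus fixed in advance, and it says little on the calls of Tcf7 and Satb1. Counts of genes called are not among these values and are given next. In the order averaged over origins, within ex-Tcirc, within ex-TRM, between origins in tissue, and the interaction, limma called 2259, 2640, 0, 0 and 2013 genes. The counts were 3485, 5757, 0, 0 and 2584 with a minimum of 1 FPKM, 195, 242, 0, 0 and 4 with a minimum of 20, 4345, 4981, 854, 584 and 3165 with no minimum, and 2420, 2602, 35, 0 and 2264 with a pseudocount of 0.1. They were 0 in all 5 over genes above 0 in all 7 libraries, with 481, 706, 110, 14 and 136 genes at an unadjusted p under 0.05, and with all 8 libraries 0, 1, 0, 0 and 0, with 2067, 1563, 198, 3 and 85 at an unadjusted p under 0.05.

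The labels do not state whether replicate numbers pair the libraries. Deviations from the group means had same-number correlations of -0.125, 0.00466 and -0.108 between groups, circulating ex-TRM not included. These cannot settle whether libraries were paired. With the replicate block limma called 1612, 2413, 0, 0 and 0 genes, Tcf7 and Satb1 did not pass averaged over origins (limma adjusted p = 0.0771 and 0.0944) or within ex-Tcirc (limma adjusted p = 0.093 and 0.0582), and Lef1 averaged over origins was -0.0428, Bach2 within ex-TRM -0.406 and the Klf3 interaction 0.085. With median-of-ratios factors the Klf3 interaction was 0.184. With all 8 libraries the averaged log2 difference was 0.255 for Tcf7, 0.124 for Satb1 and 0.509 for Foxo1. Within ex-TRM it was 2.16 for Tcf7, 1.95 for Lef1, 2.33 for Satb1 and 0.449 for Klf3, and the interaction was 1.5 for Lef1 and 2.73 for Klf3, since the added library lists every member at 0. Over all alternatives the limma adjusted p averaged over origins ranged over 0.00221 to 0.932 for Tcf7, 0.00348 to 0.968 for Satb1 and 0.00301 to 0.703 for Klf3.

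Leaving out 1 library gave 0 to 6677 calls averaged over origins (0 without either tissue ex-TRM library), 2047 to 7394 within ex-Tcirc, 0 within ex-TRM and between origins, and 0 to 6359 for the interaction. Differences averaged over origins ranged from -0.116 to 0.155 for Lef1, -1.12 to 0.215 for Foxo1 and -0.014 to 2.76 for Foxp1. Bach2 within ex-TRM ranged from -0.0362 to 0.193. Between origins in tissue Lef1 ranged from -0.0701 to 0.12 and Klf3 from -0.782 to 0.0801. Interactions ranged from -0.105 to 0.342 for Tcf7 and -0.923 to 0.896 for Klf3. The cause of these changes was not tested. Without circulating ex-TRM replicate 2 only the ex-Tcirc comparison and that between origins in tissue have a value. Genes of the other lists were not recomputed one by one. Depth is unknown, and the zeros of Bach2 and Foxp1 in circulating ex-Tcirc replicate 2 lie where 55.2% of genes of such tissue levels were at 0.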
